A study of Mus musculus with 6 samples.

Results

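Messenger RNA levels were described in WT γδ T cells from the mouse spleen, as measured by RNA sequencing in the 3 libraries titled WT. These are 3 of the 6 libraries of a series on Usf3, a gene for a transcription factor of the basic helix-loop-helix leucine zipper kind. By the series' design text the cells were sorted by flow cytometry from mice at 6 weeks of age. WT was taken as the Usf3 f/f genotype, in which both Usf3 alleles carry loxP sites and no Cre is present, so the animals are floxed controls and not mice without a modified allele. The other 3 libraries came from Usf3 f/f mice with CD2-cre and were not used, and no genotypes were compared. Whether each library is a separate animal, whether animals were pooled, and whether the cells were cultured or stimulated after the sort is not given in the labels or the design text. Spread between the libraries may therefore be technical.

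γδ T cells carry an antigen receptor made of a γ and a δ chain, held at the surface by the same CD3 chains that αβ T cells use. They leave the thymus already biased toward an effector program. One kind, tied to the factors T-bet and Eomes, makes interferon-γ and kills with granzymes and perforin. Another makes interleukin-17. The spleen is known to hold both kinds along with less committed cells.

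The WT cells held very high levels of cytotoxic granule genes and high levels of genes of cell division, and interleukin-17 genes close to the limit of counting. Gzmb, the gene for the caspase-cleaving protease granzyme B, was the gene of rank 2 by level among 19390 and Gzma, for the tryptase granzyme A, was of rank 8. The interferon-γ gene Ifng stood at 57.5 ± 0.816 FPKM and the interleukin-17A gene Il17a at 0.395 ± 0.211 FPKM (mean ± SD, n = 3 libraries, here and wherever ± follows). Every one of the 42 listed genes of DNA replication and mitosis was at or above 1 FPKM in each library, against 50% of all genes. The lists were chosen with earlier results of these data known, so this share over the background is a description and not a result. FPKM, the deposited unit, is a gene's reads scaled by the length of its exons and by all counted reads of the library, so it allows levels of different genes to be compared. Levels of 1 group were described and no test was made, and no p-value is given. In bulk RNA, fewer cells of a kind and less RNA per cell cannot be told apart, so a low level does not separate a few cells with much of an RNA from many cells with little.

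The label itself could be checked only in part. The 17 listed γ and δ receptor symbols and the αβ receptor constant genes Trac, Trbc1 and Trbc2 were not analysed here. The CD3 chains and the pan-T molecule Thy1 were among the abundant genes, and the co-receptor gene Cd4 was low at 0.0809, 0.157 and 0.212 FPKM (10, 19 and 26 counts). Cd8a and Cd8b1, which together form the CD8αβ co-receptor of most killer αβ T cells, stood at 20.9, 21 and 21.1 FPKM and at 12.4, 12.4 and 11.7 FPKM, and the part of αβ T cells in these values was not tested.

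Promoter sequences are shown for 10 genes of differing level. They are abundant effector genes (Gzmb, Gzma), an intermediate cytokine (Ifng), a cytokine near the limit (Il17a), and genes of division (Top2a, Cdk1, Cdc20, Ccnb1, Ube2c and Cdk4). Each runs from 130 bases before the annotated start to 10 bases after it, 5′ to 3′ on the gene's strand, from RefSeq on build GRCm38.p6. That build differs from the GRCm39 named in the submitters' processing notes, and no count was placed by these coordinates. Capitals mark matches, on either strand, to the CCAAT box (CCAAT), the GC box (GGGCGG), the TATA box (TATAAA), the cell cycle homology region or CHR (TTTGAA) and the E-box bound by USF proteins (CACGTG). A match is a run of letters, not a shown binding site.
Gzmb (chr14:56262325-56262464, - strand): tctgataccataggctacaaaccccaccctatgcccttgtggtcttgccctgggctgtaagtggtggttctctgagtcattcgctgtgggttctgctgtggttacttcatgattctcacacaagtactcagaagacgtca
Gzma (chr13:113100972-113101111, - strand): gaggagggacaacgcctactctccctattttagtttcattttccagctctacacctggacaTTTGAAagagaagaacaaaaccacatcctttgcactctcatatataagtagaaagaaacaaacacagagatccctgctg
Ifng (chr10:118440916-118441055, + strand): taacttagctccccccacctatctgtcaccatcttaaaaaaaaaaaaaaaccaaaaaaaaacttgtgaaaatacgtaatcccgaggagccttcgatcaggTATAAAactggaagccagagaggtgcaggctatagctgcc
Il17a (chr1:20730775-20730914, + strand): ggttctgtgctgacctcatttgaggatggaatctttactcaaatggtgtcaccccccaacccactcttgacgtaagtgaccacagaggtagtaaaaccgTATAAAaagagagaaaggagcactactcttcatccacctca
Top2a (chr11:99024180-99024319, - strand): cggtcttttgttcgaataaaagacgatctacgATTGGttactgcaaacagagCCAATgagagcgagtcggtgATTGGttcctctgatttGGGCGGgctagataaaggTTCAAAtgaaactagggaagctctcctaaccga
Cdk1 (chr10:69352903-69353042, - strand): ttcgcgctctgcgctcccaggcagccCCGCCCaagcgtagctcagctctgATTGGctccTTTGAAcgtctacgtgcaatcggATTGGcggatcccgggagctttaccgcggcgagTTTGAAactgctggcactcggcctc
Cdc20 (chr4:118437334-118437473, - strand): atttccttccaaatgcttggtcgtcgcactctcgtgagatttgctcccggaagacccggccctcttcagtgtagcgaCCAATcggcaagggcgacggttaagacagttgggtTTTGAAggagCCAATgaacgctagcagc
Ccnb1 (chr13:100786477-100786616, - strand): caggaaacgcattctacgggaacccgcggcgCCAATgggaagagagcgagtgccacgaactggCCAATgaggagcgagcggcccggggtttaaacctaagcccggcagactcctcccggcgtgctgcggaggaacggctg
Ube2c (chr2:164769799-164769938, + strand): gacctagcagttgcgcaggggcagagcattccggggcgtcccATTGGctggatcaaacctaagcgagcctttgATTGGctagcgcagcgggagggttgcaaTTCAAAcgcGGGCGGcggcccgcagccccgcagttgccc
Cdk4 (chr10:127063405-127063544, + strand): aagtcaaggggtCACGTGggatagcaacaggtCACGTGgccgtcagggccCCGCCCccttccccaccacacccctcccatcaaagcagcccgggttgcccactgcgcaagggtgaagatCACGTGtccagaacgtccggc
The Gzmb stretch holds none of the 5 motifs, whereas those of Top2a, Cdk1 and Ube2c hold a CCAAT box, a GC box and a CHR each. The Gzma stretch holds a CHR 69 bases before the start. Ifng and Il17a have a TATA box 30 and 31 bases before their starts, and Ifng was 175-fold (SD 85.5) more abundant than Il17a. Cdk4 has 3 matches to the E-box letters CACGTG, 118, 98 and 11 bases before its start, and no CCAAT box. Which factors bind there was not tested.

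Counts of the motifs used the whole RefSeq window of 250 bases before to 50 bases after the start. Of the 22 listed genes of G2 phase and mitosis 19 had such a window. Of these 17 held a CCAAT box, 16 a GC box, 14 a CHR, 0 a TATA box and 0 the E-box letters. In Top2a 3 CCAAT letters lie 98, 78 and 58 bases before the start and a CHR lies 23 bases before it, and in Cdk1 the boxes lie 80 and 48 bases and the CHRs 71 and 15 bases before it. Birc5 and Nusap1, for the passenger protein survivin and a spindle protein, were the 2 mitosis genes with a window but no CCAAT box. The share with each motif over all 32841 RefSeq windows was 37.4% for the CCAAT box, 35.7% for the GC box, 17.9% for the CHR, 13.6% for the TATA box and 7.15% for the E-box. Over the 7793 windows of genes at or above 1 FPKM (80.3% of 9703 such genes had one), these shares were 39.8%, 66.3%, 12.4%, 6.44% and 10.7%. No motif contains another, base composition was not matched between these sets, and the shares are descriptions.

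The CCAAT box was also in most windows of the effector fate factors, where 13 of 16 genes had a window and 11 of those held a CCAAT box, 5 a GC box and 2 a CHR. Of the 20 listed replication genes 16 had a window, with a CCAAT box in 10, a GC box in 13 and a CHR in 1. All 10 granzyme genes had a window, and a GC box was in 0, a TATA box in 1, a CCAAT box in 3 and a CHR in 3. Of the 7 type 17 cytokine genes with values, 6 had a window and 4 of those held a TATA box. Of the 14 inhibitory killer receptor genes, 12 had a window, of which 7 held a TATA box, 7 a CHR and 0 a GC box. The CHR was thus not particular to the mitosis genes. The granzyme and killer receptor genes each lie in clusters of related copies, so these windows are not independent sequences.

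The deposited counts summed to 35613092, 34914065 and 35387260 in the 3 libraries, and 16376, 16358 and 16331 genes had at least 1 count. A gene at 0 in a library of this depth may still hold up to 3 counts, which allows a share of up to 8.59e-06% of the reads in the smallest library; such floors cover counting error only, since reads without molecular identifiers are not independent molecules. At or above 1 FPKM in every library were 9703 of 19390 genes (50%), and 5157 (26.6%) reached 10 FPKM and 665 (3.43%) reached 100 FPKM. The 57 genes over 1000 FPKM in every library held 24.9% of the summed FPKM. At most 3 counts in each library were found for 4165 genes (21.5%), of which 1261 had 0 counts in all 3. The median level of all genes was 1.15 FPKM, against which the gene groups below are read. These percentages are the background for every count of members that follows.

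The most abundant gene was Eef1a1, the elongation factor that brings amino acids to the ribosome, at 5984, 5946 and 5888 FPKM. Gzmb followed at 4574, 4687 and 4663 FPKM and COX1, a mitochondrially encoded subunit of cytochrome oxidase, at 4437, 4618 and 4551 FPKM. Those levels do not overlap for Eef1a1 and Gzmb, and Gzmb was above COX1 in each library, though the highest COX1 value exceeded the lowest Gzmb value. Actin and its monomer-binding thymosins came next, with Actb at 3868, 3811 and 3776 FPKM, Tmsb10 at 3545, 3629.9 and 3540.5 FPKM and Tmsb4x at 3599.6, 3489.7 and 3614 FPKM. Tmsb10 and Tmsb4x changed places between libraries. Gzma, the second granzyme of the 25, was at 2693, 2646 and 2726 FPKM, between the ribosomal protein genes Rpl41 at 2966, 2978 and 3042 FPKM and Rplp1 at 2345, 2277 and 2346 FPKM. B2m, the light chain of class I histocompatibility molecules, was at 2227, 2198 and 2194 FPKM.

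The other genes of the first 25 serve the ribosome, the mitochondrion and protein folding. Ribosomal proteins made up 12 of the 25, namely Rpl41, Rplp1, Rpl32, Rps2, Rplp0, Rps23, Rps18, Rps29, Rpl3, Rps26, Rps3a1 and Rpl10, with the 10 not yet given standing between 1612 and 2000.1 FPKM on the mean. CYTB, for cytochrome b, was at 2109 ± 68.4 FPKM and ND1, a subunit of complex I, at 1965 ± 111 FPKM, both mitochondrially encoded. The remaining 3 were Ppia, for the prolyl isomerase cyclophilin A, at 2061 ± 25.6 FPKM, Ptma, for the nuclear protein prothymosin α, at 1930.1 ± 37.5 FPKM, and Hsp90ab1, for the chaperone HSP90β, at 1689 ± 21.8 FPKM. Several of these genes have processed copies elsewhere, which makes their levels uncertain where reads could be split between copies. Of the 50-base windows along the transcript, 59.2% recur in other genes for Eef1a1, 71.3% for Rps2 and 85.6% for Rpl3.

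A small share of the genes held most of the RNA by level. The 100 highest genes held 33.1% ± 0.084 of the summed FPKM, 322 genes held 50% and 3757 held 90%. The 77 cytosolic ribosomal protein genes held 18.0% ± 0.13, the 13 mitochondrially encoded genes 2.60% ± 0.099 and the 10 granzyme genes 1.82% ± 0.013. The 42 replication and mitosis genes held 0.955% ± 0.0045 and the 17 glycolysis genes 0.910% ± 0.0040. By counts, which favour long genes, ribosomal proteins took 6.55%, granzymes 0.975% and replication and mitosis genes 1.31%. Thus the short granzyme transcripts took more of the RNA than the 42 division genes by level, and less by counts.

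**Figure D1:**
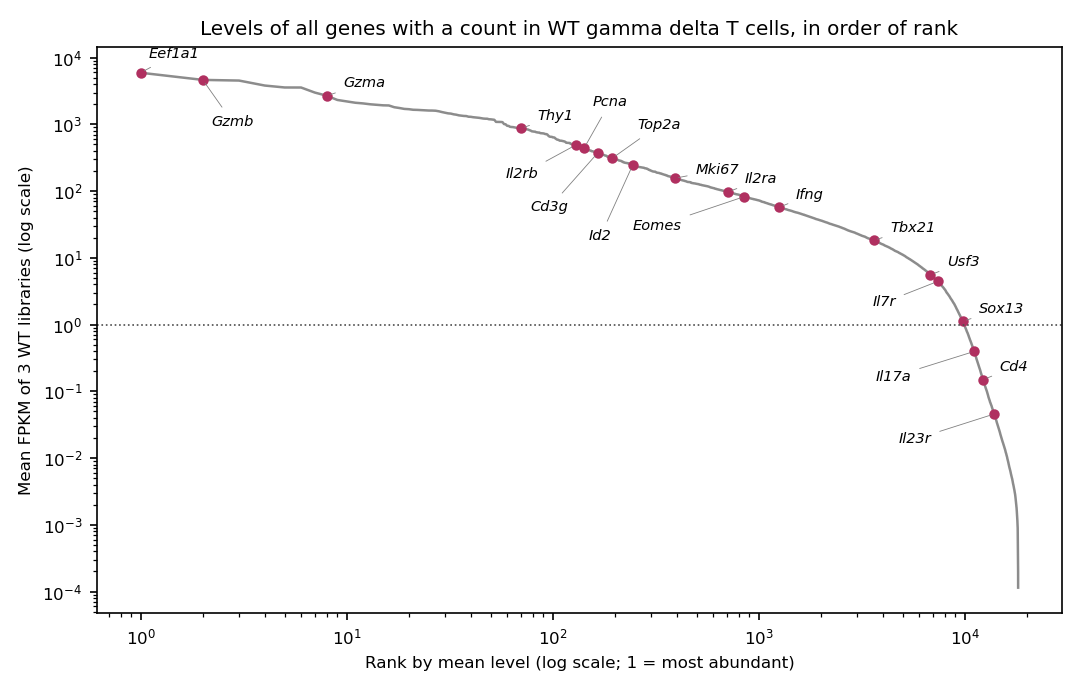
Mean level of each gene over the 3 WT libraries (vertical axis, FPKM, log scale) against its rank (horizontal axis, log scale) for all genes with a count, with named genes marked in red and a dotted line at 1 FPKM. Gzmb is at rank 2 and Gzma at rank 8, while Il17a at 0.395 FPKM and Il23r at 0.0457 FPKM lie under the line.

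Over all lists together 465 members had values, and 317 of them were at or above 1 FPKM in every library, against 50% of all genes. Of the members 56 had at most 3 counts in each library, against 21.5% of all genes, and 92 lay in between. The members had been picked because lymphocytes are known to use or lack them, so their share over the background is not a result.

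All 4 invariant CD3 chains, which carry the receptor's signal into the cell, were over 10 FPKM, with a median of 208 FPKM. Cd3g was at 366, 374 and 377 FPKM, Cd3e at 229.6, 228 and 223 FPKM and Cd3d at 189, 188 and 189 FPKM. Cd247, for the ζ chain, was far lower at 23.5, 24.2 and 24.7 FPKM, and no neighbours in this order overlapped between libraries. Of the exonic bases of Cd247, 60.3% lie in exons of other annotated genes, so reads there could have been left uncounted or assigned elsewhere, which was not tested.

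Of 9 proximal kinases and adaptors, 7 were at or above 1 FPKM in every library. Lck, the kinase that phosphorylates the CD3 chains, was at 282, 292 and 282 FPKM, and Lat, the scaffold on which signalling complexes form, at 169, 165 and 169.7 FPKM. Lcp2, for the adaptor SLP-76, was at 94.2, 99.2 and 97.3 FPKM. These 3 did not overlap with each other. Zap70, the kinase that docks on phosphorylated CD3, was at 73.5 ± 1.1 FPKM, Fyn at 27.3 ± 0.276 FPKM and Txk at 21.7 ± 0.56 FPKM. Blk, a Src family kinase that is known from B cells and interleukin-17-making γδ T cells, was at 1.26, 0.961 and 1.52 FPKM. It fell under 1 FPKM in library 2. Syk, which can stand in for Zap70, was at 0.74, 0.704 and 0.662 FPKM, so Zap70 was the more abundant of the pair in each library.

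Of 10 pan-T and co-receptor molecules 9 were at or above 1 FPKM, with a median of 27.9 FPKM. Thy1, the anchored glycoprotein used to mark mouse T cells, was at 875, 863 and 869.9 FPKM and rank 70, and Ptprc, for the phosphatase CD45, was at 366, 369 and 374 FPKM. Cd2, an adhesion receptor, was at 152, 158 and 151 FPKM and Cd28, the co-stimulatory receptor for B7 molecules, at 53.4, 53.9 and 53.4 FPKM. These 4 kept 1 order in all libraries without overlap. Cd27, a co-stimulatory receptor that marks γδ T cells able to make interferon-γ, was at 34.7 ± 0.643 FPKM, between Cd28 and Cd8a. The scavenger-like receptors Cd6 and Cd5 were at 9.64 ± 0.26 and 7.82 ± 0.382 FPKM. Cd8a exceeded Cd8b1 by 1.73-fold (SD 0.0633).

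Of 11 receptors induced by activation 9 were at or above 1 FPKM, with a median of 21.7 FPKM. Tnfrsf9, for the co-stimulatory receptor 4-1BB, was at 190.3, 195 and 193 FPKM and Cd69, an early activation antigen that holds cells in tissue, at 141, 142 and 146 FPKM. Il2ra, the high-affinity interleukin-2 receptor chain, was at 97.5, 98.6 and 97.1 FPKM, and Tnfrsf18, for GITR, at 51, 51.4 and 54 FPKM. Icos was at 24.4 ± 0.768 FPKM, Cd44 at 21.7 ± 0.462 FPKM and Cd226, for the activating receptor DNAM-1, at 12 ± 0.278 FPKM. Lower still were Tnfrsf4, for OX40, at 2.58 ± 0.275 FPKM and Slamf1 at 1.81 ± 0.148 FPKM. Cd40lg, the helper cell ligand that licenses B cells, was at 0.124 ± 0.0991 FPKM. The list thus ran from 4-1BB at rank 317 to the CD40 ligand at rank 12490, with no overlap among neighbours over 1 FPKM.

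Inhibitory receptors of T cells were present in 8 of 10 cases at or above 1 FPKM, none over 100 FPKM, with a median of 34.3 FPKM. Cd96, which competes with Cd226 for the same ligand, was at 85, 86.8 and 84.9 FPKM and Ctla4, which takes B7 molecules from Cd28, at 60.1, 58.2 and 61.1 FPKM. Pdcd1, for PD-1, was at 49, 50.4 and 48.4 FPKM and Cd160 at 43.2, 42.3 and 44.6 FPKM. The levels of Ctla4 and Cd28 in these libraries were close, and Ctla4 was the higher in each. Lag3 was at 36 ± 0.558 FPKM, Havcr2, for TIM-3, at 32.5 ± 0.646 FPKM, Tigit at 12.8 ± 0.913 FPKM and Cd200r1 at 2.28 ± 0.338 FPKM. Cd200 was at 0.537 ± 0.0662 FPKM, under the threshold.

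Killer cell receptors of the activating kind were at or above 1 FPKM in 11 of 13 cases, with a median of 13.2 FPKM. Klrd1, for CD94, the partner of the NKG2 chains, was at 129, 124 and 138 FPKM. Fcer1g, an adaptor chain with an activation motif, was at 102, 94.7 and 106 FPKM, and Klrk1, for the stress ligand receptor NKG2D, at 96.3, 96.2 and 98.6 FPKM. Fcer1g and Klrk1 overlapped, so their order is not fixed. Hcst, for DAP10, the adaptor of NKG2D, was at 45.2, 44.3 and 45.1 FPKM. Klrb1c, for NK1.1, followed at 28.6, 27.9 and 30.3 FPKM, Cd244a, for 2B4, at 19 ± 0.246 FPKM and Klrc2, for NKG2C, at 13.2 ± 1.78 FPKM. Tyrobp, for the adaptor DAP12, was at 8.16 ± 0.372 FPKM, so of the 3 adaptor genes it was the lowest in each library. Lower levels were those of Crtam at 6.19 ± 0.212 FPKM, Klrc3 at 4.27 ± 0.719 FPKM and Klrb1f at 2.96 ± 0.16 FPKM.

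Inhibitory killer receptors were lower, with 6 of 14 at or above 1 FPKM and a median of 0.623 FPKM. Klrc1, for NKG2A, stood apart from the rest at 46, 57 and 51.5 FPKM. It was 3.94-fold (SD 0.468) above Klrc2, though 40.3% of the windows of Klrc1, 30.1% of those of Klrc2 and 41.1% of those of Klrc3 recur in other genes, so reads may be split among the 3. Klra5, a Ly49 receptor, was at 7.92, 7.05 and 7.06 FPKM, Klre1 at 6.07, 6.39 and 6.42 FPKM and Klra7, for Ly49G, at 2.11, 2.06 and 1.87 FPKM. Klri2 and Klri1, at 1.31 ± 0.141 and 1.3 ± 0.188 FPKM, overlapped. Klrg1, a receptor of long-differentiated effector cells, was at 0.597, 0.692 and 0.331 FPKM and Klra1 at 0.419 ± 0.183 FPKM. At most 3 counts in each library were found for Klra6, Klra4, Klra9 and Klra17, and Klra8 stood at 0.0966 ± 0.0643 FPKM. The Ly49 genes vary between mouse strains and share sequence, and their levels depend on how reads were assigned.

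Cytokine receptors of the common γ chain family were led by the chains that bind interleukin-2 and interleukin-15, and 8 of 9 were at or above 1 FPKM, with a median of 41.5 FPKM. Il2rb, the signalling chain shared by both cytokines, was at 492, 487 and 489 FPKM and rank 129. Il2rg, the common γ chain, was at 286, 288 and 291 FPKM, and Il2ra came next at 97.7 ± 0.743 FPKM. Il21r was at 49.5, 49.3 and 52.2 FPKM. All 3 chains of the high-affinity interleukin-2 receptor were thus over 90 FPKM in each library, while Il7r, the receptor for the survival cytokine interleukin-7, was at 4.72, 4.68 and 3.91 FPKM. The ratio of Il2rb to Il7r was 111 (SD 12). Il4ra was at 41.5 ± 0.644 FPKM, Crlf2, for the TSLP receptor, at 25.7 ± 1.52 FPKM and Il15ra at 4.85 ± 0.0989 FPKM. Il9r had at most 3 counts in each library.

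Among receptors of the interleukin-1, interleukin-12 and interleukin-17 families 8 of 14 were at or above 1 FPKM, with a median of 2.65 FPKM. The highest were Il18r1, Il12rb1 and Il18rap, chains of the receptors for interleukin-18 and interleukin-12, which drive interferon-γ production. Il17ra came next, above Il12rb2 without overlap. Il18r1 was at 59.5, 58.5 and 60.2 FPKM and its partner Il18rap at 44.9, 43.9 and 44.6 FPKM. Il12rb1, shared by the interleukin-12 and interleukin-23 receptors, was at 55.8, 55.1 and 54.5 FPKM, and Il12rb2, which completes the interleukin-12 receptor, at 38 ± 1.16 FPKM. Il23r, which completes the interleukin-23 receptor, was at 0.0112, 0.103 and 0.0226 FPKM. Il1r1, which receives interleukin-1 in interleukin-17-making γδ T cells, was at 0.0457, 0.0233 and 0.0322 FPKM. Both lie far under the median of all genes, with 1 chain of the interleukin-23 receptor present at over 50 FPKM and the other at the edge of detection. Il17ra was at 40.1, 38.9 and 39 FPKM and Il27ra at 28.3 ± 1.1 FPKM. Il1rl1, for the interleukin-33 receptor, and Il6st, for gp130, overlapped at 2.77 ± 0.16 and 2.52 ± 0.145 FPKM. Between the floor and 1 FPKM lay Il1r2, Il6ra and Il17re at 0.0774, 0.0673 and 0.0601 FPKM, and Il17rc had at most 3 counts in each library.

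Receptors for interferons, interleukin-10, TGF-β and tumour necrosis factor were listed with those for interleukin-3, GM-CSF and erythropoietin. At or above 1 FPKM were 12 of 15, with a median of 13.1 FPKM, and those under it were Csf2ra, Csf2rb and Epor. Ifngr1, the ligand-binding chain for interferon-γ, was at 266, 260.4 and 265 FPKM, and its partner Ifngr2 at 4.58, 4.16 and 3.89 FPKM. Tgfbr2 was at 37.8, 37.9 and 38 FPKM and Tnfrsf1b, for the second tumour necrosis factor receptor, at 32.3, 32.7 and 31.4 FPKM. The 2 chains of the interferon-γ receptor thus lay far apart. Il10ra was at 29.3, 29.2 and 29.96 FPKM and Il10rb at 19.3 ± 0.748 FPKM. Ifnar1 was at 21.8 ± 0.217 FPKM, and Tnfrsf1a and Ifnar2 overlapped at 13.9 ± 0.604 and 13.1 ± 0.268 FPKM, as did Tgfbr1 and Il3ra at 7.29 ± 0.44 and 7.27 ± 0.245 FPKM. Tgfbr3 was at 2.09 ± 0.123 FPKM. The chains of the GM-CSF receptor, Csf2ra and Csf2rb, were at 0.297 and 0.0485 FPKM. The counted length of Csf2ra is 13718 bp, against 1849 bases for the reference transcript used to check shared sequence, and it had 153, 136 and 143 counts, so its level is uncertain. Epor, for the erythropoietin receptor, was at 0.040 FPKM.

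Of the chemokine receptors 5 of 11 CC receptors and 3 of 8 others were at or above 1 FPKM, beside 50% of all genes, with group medians of 0.442 and 0.170 FPKM beside the 1.15 FPKM of all genes. Ccr2, which draws cells to inflamed tissue, was at 158, 154 and 163 FPKM. Ccr7, which leads to lymph nodes, was at 19, 19.8 and 18.8 FPKM and Ccr4 at 2.39, 2.31 and 2.21 FPKM. Ccr2 exceeded Ccr7 by 8.26-fold (SD 0.459), and Ccrl2 was at 1.36 ± 0.0731 FPKM. Cxcr6, a receptor of tissue-resident lymphocytes, was at 109.5, 105 and 111 FPKM, Cxcr3, the receptor for interferon-induced chemokines, at 46.2, 42.7 and 44 FPKM and Cxcr4 at 6.05, 6.16 and 6.45 FPKM. Cx3cr1, found on long-lived effector cells, was at 0.247, 0.16 and 0.248 FPKM. Ccr6, a receptor of interleukin-17-making T cells, had at most 3 counts in each library, as had Ccr10, Ackr3 and Cxcr2. Ccr8, Ccr1, Ccr3 and Ccr9 were at 0.442, 0.134, 0.0242 and 0.0107 FPKM, and Cxcr5 and Xcr1 at 0.122 and 0.0632 FPKM.

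All 5 genes of tissue exit and lymph node entry that had values were at or above 1 FPKM. Selplg, the ligand of P-selectin, was at 219, 217 and 221 FPKM, S1pr4 at 33.3, 33.6 and 32 FPKM and Klf2, the factor that turns on the exit receptor S1pr1, at 10.6, 10.7 and 9.83 FPKM. S1pr1 itself was at 4.79, 4.65 and 4.91 FPKM, below Klf2 without overlap. Of the 14 integrin chains 11 were at or above 1 FPKM, led by Itgal at 189.6, 192 and 186 FPKM, the α chain of LFA-1. Itgb1 was at 137, 134 and 137 FPKM, Itgb2, the β chain of LFA-1, at 123, 124 and 119 FPKM and Itgb7 at 68.5, 70.1 and 69.8 FPKM. Itgae, the αE chain that binds epithelial cadherin with β7, was at 24.2 ± 0.636 FPKM, Itgb3 at 20.7 ± 0.644 FPKM and Itgav at 16 ± 0.315 FPKM. Itga1 and Itga6 overlapped at 4.84 ± 0.26 and 4.81 ± 0.123 FPKM, and Itga4 and Itgax were at 2.78 ± 0.128 and 1.66 ± 0.044 FPKM. Itgam, an αM chain known from myeloid and NK cells, was at 0.329 ± 0.0726 FPKM, and 72.4% of its windows recur in another gene and 68.7% of its exonic bases overlap one, so this level is uncertain.

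Transcription factors of γδ and innate-like T cells were at or above 1 FPKM in 17 of 22 cases, with a median of 7.62 FPKM. Id2, an inhibitor of E proteins, was at 247, 240.2 and 247 FPKM and Ikzf1, for Ikaros, at 85.2, 84 and 86 FPKM. Ets1 was at 73.9, 76.2 and 73.9 FPKM and Runx3, a factor of cytotoxic cells, at 46.6, 49.6 and 47.8 FPKM. The paralogue Id3, which strong γδ receptor signals induce in the thymus, was at 6.51, 6.31 and 6.85 FPKM, so Id2 was 37.3-fold (SD 1.16) above it. Their targets, the E protein genes Tcf3 and Tcf12, were at 40.04 ± 1.22 and 14.7 ± 0.587 FPKM. Tcf7, for TCF-1, was at 15.9, 16 and 16 FPKM and its relative Lef1 at 5.3, 6.51 and 6.28 FPKM. Next to these were Ikzf3 at 23.2 ± 0.414 FPKM, Myb at 12 ± 0.289 FPKM, Bcl11b at 8.71 ± 0.0651 FPKM and Ikzf2, for Helios, at 8.3 ± 0.278 FPKM. Gata3, Id3 and Lef1, with Gata3 at 6.94 ± 0.253 FPKM, overlapped from one to the next. Maf was at 3.35 ± 0.309 FPKM, and Runx1 and Tox overlapped at 2.48 ± 0.254 and 2.19 ± 0.206 FPKM.

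Several listed factors known from interleukin-17-making or innate-like γδ T cells were near or under 1 FPKM, while Maf, given above, was over it. Sox13 was at 0.919, 1.24 and 1.2 FPKM (127, 168 and 165 counts) and Sox4 at 0.364, 0.407 and 0.426 FPKM, with 54.6% of the exonic bases of Sox4 in exons of other genes. Zbtb16, for PLZF, the factor of innate-like lymphocytes, was at 0.0239, 0.0731 and 0.0515 FPKM. Etv5 was at 0.368 ± 0.0221 FPKM and Hes1, a Notch target, had at most 3 counts in each library. Library 1 was the lowest of the 3 for Sox13 and the only one under 1 FPKM.

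Of the 16 effector fate factors with values 10 were at or above 1 FPKM, with a median of 3.01 FPKM. Bhlhe40, which supports cytokine production, was at 206, 206 and 197 FPKM. Eomes, a T-box factor of killer cells, was at 83, 84 and 81.6 FPKM and Hopx at 66.2, 64 and 64 FPKM, and Zbtb32 was at 22.8, 24.3 and 22.8 FPKM. Tbx21, for T-bet, was at 17.6, 18.2 and 19.1 FPKM, and Eomes exceeded it 4.53-fold (SD 0.241). Foxo1 was at 16 ± 0.361 FPKM, and Ahr at 3.8 ± 0.451 FPKM, Foxp3 at 2.87, 3.12 and 3.37 FPKM and Zbtb7b at 3.18, 2.71 and 2.82 FPKM overlapped from one to the next. Foxp3 marks regulatory αβ T cells and Zbtb7b helper αβ T cells, and the part of such cells was not tested. Prdm1 was at 1.63 ± 0.191 FPKM, and Bcl6, Zeb2 and Hlf were at 0.53, 0.404 and 0.126 FPKM.

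For some factors the rank by level was far from the rank by counts. The counted length of Rora, for the receptor RORα, is 51763 bp, and at 0.827, 0.793 and 0.748 FPKM it is under the threshold although it had 1525, 1434 and 1371 counts. It is of rank 10218 by level and 5057 by counts. Bach2, a repressor of effector fates, is alike, with 57622 bp, 0.345 ± 0.0219 FPKM and a rank of 11253 by level and 7060 by counts. Tcf7 has 12697 bp and is of rank 3979 by level and 1046 by counts. A length above that of the transcripts in the cell lowers the FPKM of a gene, and the transcripts used were not measured, so the levels of these 3 genes, and of others with long counted lengths such as Csf2ra, are uncertain.

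**Figure D2:**
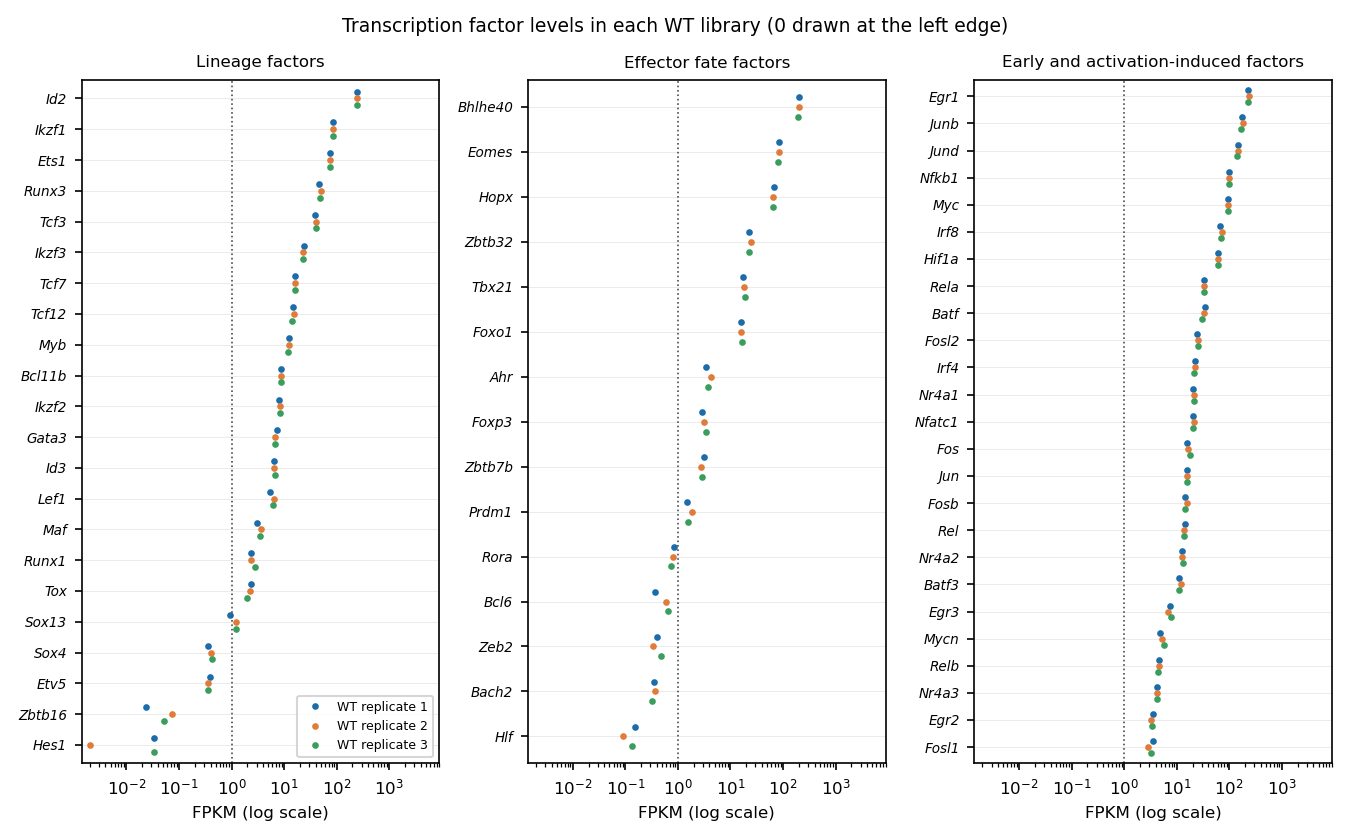
Level in each WT library (coloured points, FPKM, log scale, 0 drawn at the left edge) of lineage factors, effector fate factors and early or activation-induced factors, 1 panel each, in descending order of the mean and with a dotted line at 1 FPKM. Id2 and Bhlhe40 lie over 190 FPKM in each library, Zbtb16 and Sox4 lie under 1 FPKM, and every gene of the early and activation-induced panel lies over it.

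All 25 early and activation-induced factors were at or above 1 FPKM in every library, against 50% of all genes, with a median of 20.8 FPKM. Egr1, an immediate early factor of receptor and growth factor signals, was at 227, 236 and 229.8 FPKM. Junb was at 171, 179 and 164 FPKM and Jund at 145, 147 and 141 FPKM, both AP-1 subunits, and Nfkb1, for the p105 precursor, at 99.5, 98.4 and 98 FPKM. Egr1 was 31.7-fold (SD 3.04) above Egr3 at 7.32 ± 0.542 FPKM, and Egr2 was lower at 3.39 ± 0.161 FPKM. Myc, the driver of growth programs, was at 92.7, 94.5 and 93.1 FPKM, Irf8 at 69.3 ± 2.01 FPKM and Hif1a, for the oxygen-sensing factor, at 60.9 ± 1.03 FPKM. The NF-κB genes Rela, Rel and Relb stood at 32.8 ± 0.336, 14 ± 0.35 and 4.55 ± 0.0963 FPKM. Batf, an AP-1 partner of interferon regulatory factors, overlapped with Rela at 32.6 ± 2.34 FPKM. The Fos and Jun genes other than Junb and Jund were lower, with Fosl2 at 25.3 ± 0.63 FPKM, Fos at 16.5 ± 1.28 FPKM, Jun at 15.8 ± 0.147 FPKM and Fosb at 14.9 ± 0.604 FPKM.

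The nuclear receptors that T cell receptor signals induce kept the order Nr4a1, Nr4a2 and Nr4a3 at 21 ± 0.418, 12.8 ± 0.413 and 4.16 ± 0.0239 FPKM. Irf4, Nr4a1 and Nfatc1 overlapped from one to the next, with Irf4 at 21.7 ± 0.354 FPKM and Nfatc1 at 20.8 ± 0.342 FPKM. Batf3 was at 11.3 ± 0.503 FPKM, Mycn at 5.26 ± 0.435 FPKM and Fosl1 at 3.21 ± 0.37 FPKM. Of the exonic bases of Jund 52.6% and of Fosl1 57.2% lie in exons of other genes, so their levels are uncertain without the strand setting.

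The 7 STAT factors, which carry cytokine signals to the nucleus, were all over 10 FPKM, with a median of 43.9 FPKM. Stat3, the factor of interleukin-6 and interleukin-10 signals, was at 61, 60.6 and 58.6 FPKM and Stat4, the factor of interleukin-12, at 47.6, 45.4 and 44.4 FPKM. Stat6, the factor of interleukin-4, was at 44.1, 42.8 and 44.8 FPKM and overlapped with Stat4. Stat2 and Stat5b overlapped at 15.7 ± 0.234 and 15 ± 0.52 FPKM, and Stat5a was at 11.1 ± 0.595 FPKM.

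All 3 USF genes were at or above 1 FPKM. Usf1 was at 18.2, 20.3 and 18.5 FPKM, Usf2 at 16, 17.1 and 15.9 FPKM and Usf3, the gene with the floxed alleles, at 5.45, 5.62 and 5.69 FPKM. Usf1 exceeded Usf3 by 3.4-fold (SD 0.186) by level. Usf3 is a long gene of 12869 bp with 2499, 2527 and 2593 counts, and it is of rank 6807 by level and 3347 by counts.

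Cytokines of the type 1 and tumour necrosis factor families were at or above 1 FPKM in 10 of 14 cases, with a median of 16.3 FPKM. Ltb, for lymphotoxin β, was at 115, 130.4 and 116 FPKM and Ifng at 56.6, 58.3 and 57.5 FPKM. Fasl, which triggers death receptors on target cells, was at 43.2, 39.2 and 39 FPKM and Lta, for lymphotoxin α, at 37.1, 37.2 and 38 FPKM. Tnfsf10, for TRAIL, was at 29.2 ± 0.172 FPKM and Tnf at 24.2 ± 0.536 FPKM. Tnfsf8 was at 22.6 ± 0.164 FPKM, Tnfsf11, for RANKL, at 9.92 ± 0.382 FPKM, Tnfsf14, for LIGHT, at 7.07 ± 0.738 FPKM and Tnfsf4 at 5.19 ± 0.311 FPKM. Tnfsf13b and Tnfsf12 were at 0.495 and 0.089 FPKM, and Cd70, the ligand of Cd27, had 0 counts in every library.

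None of the 7 type 17 cytokine genes with values reached 1 FPKM in any library, and the median was 0.0404 FPKM. Il17a was at 0.216, 0.342 and 0.627 FPKM, from 9, 14 and 26 counts, with library 3 the highest and library 1 the lowest. Il17f was at 0.043, 0.0731 and 0.159 FPKM and Il23a, a subunit of interleukin-23, at 0.124, 0.126 and 0.125 FPKM. Il17c was at 0.0301, 0.0153 and 0.0757 FPKM. At these counts the differences among libraries are based on few reads. Il17d and Il21 had at most 3 counts in each library and Il22 had 0 counts in all. Ifng exceeded Il17a 175-fold on average (SD 85.5), and the ratio ran from 91.6 in library 3 to 262 in library 1.

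Of the type 2 cytokines and growth factors 6 of 17 were at or above 1 FPKM, with a median of 0.129 FPKM. Fgl2, a fibrinogen-like protein with immune-suppressive activity, was at 96.4, 99 and 99 FPKM. Lif was at 41.3, 41.9 and 39.8 FPKM and Osm at 27.6, 27.7 and 26.9 FPKM, both of the interleukin-6 family, and Csf1 at 2.82, 2.89 and 2.89 FPKM. Csf2, for GM-CSF, and Il13 overlapped at 1.67 ± 0.146 and 1.54 ± 0.38 FPKM. Il2 was at 0.0596 ± 0.0515 FPKM, so the cells held much RNA for the receptor of interleukin-2 and little for the cytokine. Areg, Il5, Il3, Il15 and Il7 were at 0.303, 0.21, 0.0777, 0.0539 and 0.0368 FPKM, and Il4, Il31, Csf3, Il33 and Il9 had at most 3 counts in each library.

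Inflammatory and regulatory cytokines reached 1 FPKM in 5 of 14 cases, with a median of 0.105 FPKM. Tgfb1 was at 133, 134 and 129 FPKM, and Il16 and Il10 overlapped at 15.9, 16.2 and 15.6 FPKM and 15.6, 15.3 and 15.9 FPKM. Il24, an interleukin-10 relative, was at 5.19, 6.1 and 5.97 FPKM. Tgfb3 at 2.03 ± 0.347 FPKM and Ebi3 at 1.22 ± 0.435 FPKM overlapped, and Ebi3 was under 1 FPKM in library 2. Il18 and Il11 were at 0.171 and 0.0314 FPKM, and Il27, Il12a, Il1b, Il6, Il1a and Tgfb2 had at most 3 counts in each library.

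Chemokine genes were present as a few high members over a low rest, 4 of 13 CC ligands and 2 of 10 others at or above 1 FPKM. Xcl1, the ligand that draws cross-presenting dendritic cells, was at 343, 352 and 349 FPKM and rank 177. Ccl4 was at 115, 111 and 112 FPKM, Ccl3 at 87.5, 85 and 85.2 FPKM and Ccl5 at 37.7, 36 and 39.4 FPKM, all 3 inflammatory chemokines of killer cells. Xcl1 was 3.09-fold (SD 0.0968) above Ccl4, which was 2.99-fold (SD 0.125) above Ccl5. Ccl1 was at 3.89, 2.38 and 3.75 FPKM, lowest in library 2, and Cxcl10, an interferon-induced ligand of Cxcr3, at 8.59, 7.93 and 6.8 FPKM. The group medians, 0.237 FPKM for CC ligands and 0.0480 FPKM for the others, lie under the median of all genes. Ccl25, Ccl27a, Ccl6 and Ccl9 were at 0.603, 0.252, 0.237 and 0.069 FPKM, with 66.4% of the windows of Ccl27a shared with other genes, and Pf4, Cxcl2, Cxcl9 and Cxcl12 at 0.219, 0.0699, 0.0194 and 0.00526 FPKM. Cxcl16, the ligand of Cxcr6, was at 0.094, 0 and 0.132 FPKM. At most 3 counts in each library were found for Ccl12, Ccl28, Ccl17, Ccl22, Ccl20, Ppbp, Cx3cl1 and Cxcl3.

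Granzyme genes reached 1 FPKM in 9 of 10 cases, with levels from 3.69 to 4641 FPKM on the mean. Gzmb was 1.73-fold (SD 0.0389) above Gzma, and Gzma was 12.6-fold (SD 0.595) above Gzmc. Gzmc was at 205, 221 and 213 FPKM and Gzmd at 58.4, 59.4 and 59 FPKM. These lie in the same mouse cluster as Gzmb and are known to appear in strongly stimulated killer cells. Gzme was at 25.6 ± 0.339 FPKM, Gzmg at 13.6 ± 0.0766 FPKM and Gzmf at 6.29 ± 0.0428 FPKM, and the copies from Gzmd to Gzmg share part of their sequence, with 21.9% of the windows of Gzmd and 20.6% of those of Gzme found in other genes. Gzmk, a granzyme of less differentiated effector cells, was at 21.3 ± 0.42 FPKM and Gzmm at 3.69 ± 0.578 FPKM. Gzmn, a granzyme of the testis, had at most 3 counts in each library.

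The other granule and protective proteins were at or above 1 FPKM in 13 of 14 cases, with a median of 53.3 FPKM. Nkg7, a membrane protein needed for granule release, was at 708, 709 and 726 FPKM. Ctsd, for the lysosomal protease cathepsin D, was at 446, 442 and 446 FPKM, Ctsw, a cathepsin of killer lymphocytes, at 196, 197 and 203 FPKM and Srgn, for the proteoglycan that packs granules, at 105, 109 and 109 FPKM. Of the windows of Ctsd 36.6% recur in another annotated gene. Prf1, for the pore-forming perforin, was at 63.8, 62.7 and 64.4 FPKM, which is 0.59 of the Srgn level (SD 0.0155). Lamp1 was at 77 ± 0.633 FPKM, Rab27a, which docks granules, at 58.1 ± 0.83 FPKM and Serpinb9, an inhibitor of granzyme B, at 48.4 ± 0.174 FPKM. Stxbp2, Serpinb6b and Unc13d overlapped from one to the next at 34.9 ± 0.533, 33.7 ± 0.698 and 33.2 ± 0.294 FPKM. Ctsc, which activates granzymes, was at 18.6 ± 0.297 FPKM, Stx11 at 8.37 ± 0.431 FPKM and Ctsl, for cathepsin L, at 0.356 ± 0.0407 FPKM.

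**Figure D3:**
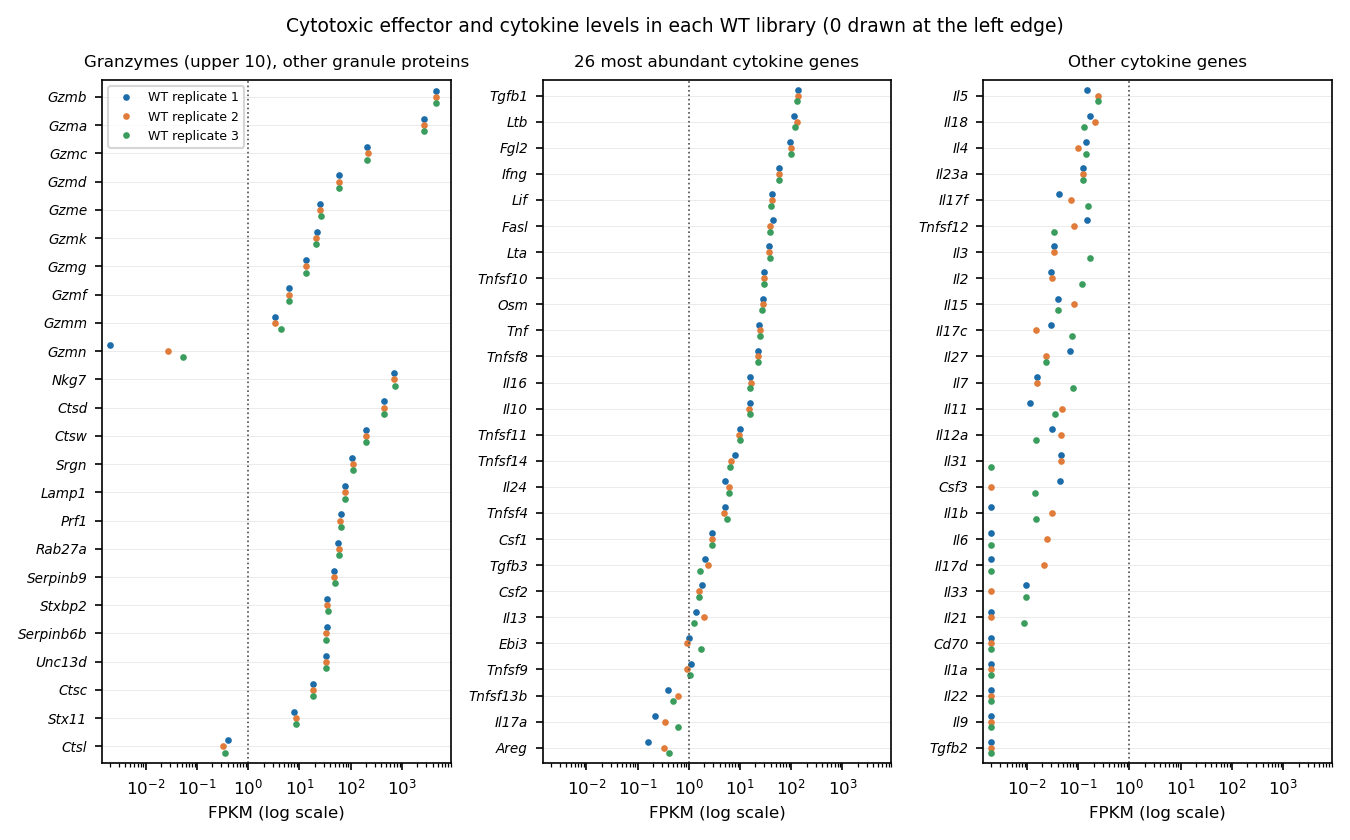
Level in each WT library (coloured points, FPKM, log scale, 0 drawn at the left edge) of granzymes and other granule genes in the left panel and of cytokine genes in the other panels, in descending order of the mean within each set and with a dotted line at 1 FPKM. Gzmb and Gzma lie over 2600 FPKM in each library, and Il17a, Il17f and Il22 lie under 1 FPKM.

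All 20 genes of DNA replication and S phase were at or above 1 FPKM and 10 were over 100 FPKM, against 50% and 3.43% of all genes, with a median of 87.3 FPKM. Pcna, the sliding clamp of DNA polymerase, was at 447, 436 and 447 FPKM and Rrm2, the regulated subunit of ribonucleotide reductase, at 239, 239 and 229.5 FPKM. Mcm5 and Mcm3, of the replicative helicase, were at 152, 155 and 157 FPKM and 146, 145 and 149 FPKM. The helicase genes Mcm5, Mcm3, Mcm7, Mcm6, Mcm4 and Mcm2 lay in a narrow range, from 102 to 155 FPKM on the mean. Mcm3 overlapped with Rrm1 at 146 ± 1.26 FPKM, and Mcm4 with Uhrf1, a reader of newly replicated DNA, at 120.2 ± 0.43 FPKM. Mcm7 was at 139 ± 1.13 FPKM, Mcm6 at 127 ± 0.947 FPKM and Mcm4 at 120.4 ± 0.752 FPKM. Tk1 was at 72.6 ± 1.16 FPKM, Cdt1, a loader of the helicase, at 56.8 ± 1.26 FPKM and the cyclin E genes Ccne1 and Ccne2 at 45.8 ± 0.741 and 9.69 ± 1.05 FPKM. Gins2 was at 36.6 ± 0.657 FPKM, with 67.3% of its exonic bases in exons of other genes. Pola1 and Cdc6 overlapped at 24.8 ± 0.673 and 24.6 ± 0.109 FPKM, and Tyms and E2f1 were at 18.2 ± 0.303 and 16.6 ± 0.71 FPKM.

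The 22 genes of G2 phase and mitosis were all over 10 FPKM, with a median of 74.7 FPKM. Top2a, the topoisomerase that untangles sister chromatids, was at 311, 309 and 310.3 FPKM and Ube2c, the E2 enzyme of the anaphase-promoting complex, at 218, 222 and 219 FPKM. Mki67, for the proliferation antigen Ki-67, was at 156, 157 and 155 FPKM and Ccnb2, for cyclin B2, at 129, 126 and 129.6 FPKM. These 4 kept 1 order without overlap. Cenpa, the centromeric histone, and Ccna2, for cyclin A2, overlapped at 113 ± 1.22 and 109.9 ± 2.18 FPKM. Cdc20, the activator of the anaphase-promoting complex, was at 104 ± 3.06 FPKM and Ccnb1 at 90.04 ± 1.19 FPKM, and 42.1% of the windows of Ccnb1 recur in other genes. Kif11 was at 84.1 ± 1.0 FPKM, Plk1, a mitotic kinase, at 78.8 ± 2.2 FPKM, and Nusap1 and Aurkb overlapped at 74.9 ± 0.744 and 74.6 ± 1.96 FPKM. Tpx2 was at 66.9 ± 1.07 FPKM, Bub1b and Birc5 overlapped at 55.6 ± 0.76 and 55.1 ± 0.241 FPKM, and Kif23 was at 50.4 ± 0.69 FPKM. Aurka and Cdk1 overlapped at 44.6 ± 1.64 and 43.6 ± 0.28 FPKM, as did Bub1 and Cenpe at 31.6 ± 1.18 and 30.7 ± 0.0954 FPKM. Hmmr was at 37.5 ± 1.22 FPKM and Cenpf, a long gene, lowest at 17.2 ± 0.524 FPKM.

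Of 17 G1 cyclins, their kinases and inhibitors 15 were at or above 1 FPKM, with a median of 27.9 FPKM. Cdk4, the kinase partner of D cyclins, was at 174, 171 and 178 FPKM, Ccnd3, for cyclin D3, at 84.1, 89.3 and 88.8 FPKM and Ccnd2 at 50.7, 52.5 and 52.2 FPKM. Ccnd3 exceeded Ccnd2 by 1.69-fold (SD 0.0248), and Ccnd1, the D cyclin of many other tissues, was at 0.0447, 0.0456 and 0.015 FPKM. Btg1, a gene of resting lymphocytes that restrains growth, was at 78.9, 78.4 and 78.4 FPKM, and its relatives Btg2 and Tob1 at 23.3 ± 1.16 and 4.42 ± 0.291 FPKM. Inhibitors of cell cycle kinases were present beside the cyclins, with Cdkn1a, for p21, and Cdkn2d overlapping at 44.3 ± 1.4 and 42.9 ± 1.3 FPKM. Cdkn2c was at 31.2 ± 1.44 FPKM, Cdkn2a at 24.1 ± 0.661 FPKM, overlapping with Btg2, and Cdkn1b, for p27, at 18.3 ± 1.92 FPKM. Cdk6 was at 38 ± 0.373 FPKM, Cdk2 at 27.9 ± 1.13 FPKM, Rb1 at 16 ± 0.305 FPKM and Cdkn2b at 9.17 ± 0.549 FPKM. Cdkn1c, for p57, was at 0.0637 ± 0.022 FPKM.

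All 17 genes of glycolysis were at or above 1 FPKM, with a median of 118 FPKM. Eno1 was at 1096, 1089 and 1084 FPKM, Pgk1 at 663, 659 and 661 FPKM, Tpi1 at 488, 484 and 487 FPKM and Ldha, which turns pyruvate into lactate, at 359, 361 and 364 FPKM. Pkm was at 323 ± 3.79 FPKM, Gpi1 at 292 ± 1.65 FPKM and Pgam1 at 153 ± 2.68 FPKM. Gapdh stood at 121, 116 and 117 FPKM, so Pgk1, of the next step, exceeded it 5.59-fold (SD 0.104), and Aldoa stood at 6.16, 5.65 and 5.62 FPKM, so Tpi1 exceeded it 83.9-fold (SD 4.07). Both are usually abundant enzymes of the same pathway. Of the windows of Gapdh 82.5% recur in other genes, among 218 of them, and of those of Eno1 72.2% and of Pgk1 68.0% also recur, whereas for Aldoa the share is 13.5%. The part of reads left out or assigned to copies was not tested. Pfkp overlapped with Gapdh at 119 ± 0.88 FPKM. The transporters and first enzymes were lower, with Slc2a1, the glucose carrier of activated T cells, at 49.5 ± 0.527 FPKM, Hk1 at 44.4 ± 1.46 FPKM and Hk2 at 20.7 ± 0.334 FPKM. Slc16a1 and Pfkl overlapped at 36.3 ± 1.42 and 36 ± 0.50 FPKM, and Slc16a3 and Slc2a3 were at 31.7 ± 1.07 and 15 ± 0.442 FPKM.

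Carriers of amino acids and iron were at or above 1 FPKM in 5 of 6 cases, with a median of 77.0 FPKM. Tfrc, the transferrin receptor, was at 117, 116 and 121 FPKM, Slc7a5, the large neutral amino acid carrier, at 99.2, 98.2 and 96.1 FPKM and Slc1a5, which takes up glutamine, at 93.7, 94.3 and 95.5 FPKM. Slc38a2 was at 59.3, 59.5 and 59.6 FPKM, Slc3a2, the partner chain of Slc7a5, at 35.9 ± 0.0561 FPKM and Slc7a11, the cystine carrier, at 0.0271 ± 0.0137 FPKM. All 12 genes of lipid synthesis and oxidation were over 10 FPKM, with a median of 53.2 FPKM. Scd2, a fatty acid desaturase, was at 226, 228 and 225 FPKM, and Hmgcs1, of sterol synthesis, was at 87.6, 87.5 and 92 FPKM. Hadha, of fatty acid oxidation, was at 73.5, 73.2 and 71.6 FPKM, with its fellow oxidation gene Acadvl at 27.4 ± 1.06 FPKM. Fasn was at 65.2 ± 1.29 FPKM, Sqle at 61.4 ± 0.372 FPKM and Scd1 at 17.4 ± 0.162 FPKM. Cpt1a and Acadm overlapped at 14.9 ± 0.371 and 14.3 ± 0.461 FPKM, and Acaca was at 13.4 ± 0.168 FPKM, with 52.6% of its windows shared with another gene.

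Markers of other cells were read for the whole of each list. Of 57 markers of B, myeloid, granulocyte, erythroid and stromal cells with values 11 were at or above 1 FPKM, against 50% of all genes, and 22 had at most 3 counts in each library, against 21.5% of all genes. Their median was 0.0400 FPKM. Of 11 B and plasma cell markers only Cd79b, a chain of the B cell receptor, reached 1 FPKM, at 4.54, 4.75 and 4.43 FPKM. Its partner Cd79a was at 0.14, 0.286 and 0.169 FPKM, Fcer2a at 0.14, 0.0817 and 0.141 FPKM and Vpreb3 at 0.063, 0.129 and 0.0317 FPKM. The defining B cell genes were lower, with Ms4a1, for CD20, at 0.0286 ± 0.0098 FPKM, Pax5 at 0.0195 ± 0.012 FPKM and Ebf1 at 0.00284 ± 0.00188 FPKM. Blnk, Jchain and Cr2 had at most 3 counts in each library. The summed B cell list was 5.01, 5.38 and 4.88 FPKM.

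Of 11 monocyte and macrophage markers 2 reached 1 FPKM. Ly6c2, a surface antigen that memory and effector T cells also carry, was at 569, 553 and 586 FPKM, with 33.0% of its windows in other genes, and Cd68, a lysosomal protein, was at 5.7, 7.49 and 6.84 FPKM. Lyz2, for lysozyme, was at 0, 0.379 and 0 FPKM and Cd14 at 0.0169, 0.0862 and 0.017 FPKM. Cd68, Lyz2 and Cd14 were each highest in library 2, Lyz2 from 0, 14 and 0 counts. The receptor of macrophage growth factor, Csf1r, was at 0.0121 ± 0.0152 FPKM, Vcam1 was at 0.011 ± 0.0191 FPKM, and Adgre1, C1qa and C1qb had 0 counts in every library. Ms4a7 had at most 3 counts in each. The summed list, 575, 561 and 593 FPKM, was almost entirely Ly6c2.

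Of 9 dendritic cell markers 6 reached 1 FPKM, several of which lymphocytes also use. Bst2, an interferon-induced protein, was at 105, 100.2 and 104 FPKM, Batf3 at 11, 11.9 and 11 FPKM and Cd74, the class II invariant chain, at 8.26, 9.74 and 8.37 FPKM. H2-Ab1 was at 2.97, 2.5 and 2.8 FPKM and H2-Aa at 1.84 ± 0.152 FPKM. The restricted markers Zbtb46 and Xcr1 were at 0.0755 and 0.0632 FPKM, and Flt3 had at most 3 counts in each library. The summed list was 131, 128 and 130.1 FPKM.

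None of 9 neutrophil and mast cell markers reached 1 FPKM in every library. Mcpt8, a basophil protease, was at 0.816, 1.44 and 0.871 FPKM, over 1 FPKM in library 2 only, and Cpa3, a mast cell protease, was at 0.398, 0.348 and 0.382 FPKM. S100a8, Ly6g, Camp, Mpo, Ltf, Ms4a2 and Ngp had at most 3 counts in each library, and the summed list was 1.4, 1.93 and 1.46 FPKM. None of 7 erythroid and platelet markers reached 1 FPKM, with Pf4 highest at 0, 0.275 and 0.38 FPKM, then Itga2b at 0.237, 0.20 and 0.206 FPKM, Hba-a1 at 0.201, 0.0512 and 0 FPKM and Klf1 at 0.019, 0 and 0.191 FPKM. Hba-a1 shares 67.5% of its windows with Hba-a2. Ppbp, Alas2 and Gp9 had at most 3 counts in each library, and the summed list was 0.523, 0.567 and 0.806 FPKM. Of 10 stromal, endothelial and epithelial markers 2 reached 1 FPKM, Pecam1, an adhesion molecule that lymphocytes share with endothelium, at 18.5, 15.2 and 18.1 FPKM and Epcam at 2.77, 1.83 and 2.37 FPKM. Krt18 was at 0.0802, 0.205 and 0.101 FPKM and Pdgfrb at 0.0873, 0.0797 and 0.116 FPKM, and the collagen genes Col1a1 and Col3a1 were at 0.0159 and 0.00677 FPKM. Kdr was at 0.0374 FPKM, and Acta2, Col1a2 and Krt8 had at most 3 counts in each library. The summed list was 21.4, 17.4 and 20.8 FPKM, lowest in library 2.

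NK cells share much of their program with cytotoxic T cells. Of 10 NK markers 5 reached 1 FPKM in every library, no larger a share than the 50% of all genes. They were Gzma, Eomes, Klrb1c and Klre1, given above, and Nfil3 at 13.6, 13.4 and 13.2 FPKM. Ncr1, for NKp46, the marker most restricted to NK cells, was at 1.56, 1.21 and 0.928 FPKM, with library 3 under 1 FPKM and library 1 the highest. Of the Ly49 genes on this list Klra4 and Klra9 had at most 3 counts in each library and Klra8 was at 0.0238, 0.146 and 0.12 FPKM. The CD3 chain Cd3g was at 372 ± 5.81 FPKM beside these values, and the part of NK cells in the killer receptor levels was not tested. The αβ T cell list had 5 genes with values, of which 4 reached 1 FPKM (Cd8a, Cd8b1, Foxp3 and Zbtb7b), and its sum was 39.4, 39.4 and 39.3 FPKM.

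**Figure D4:**
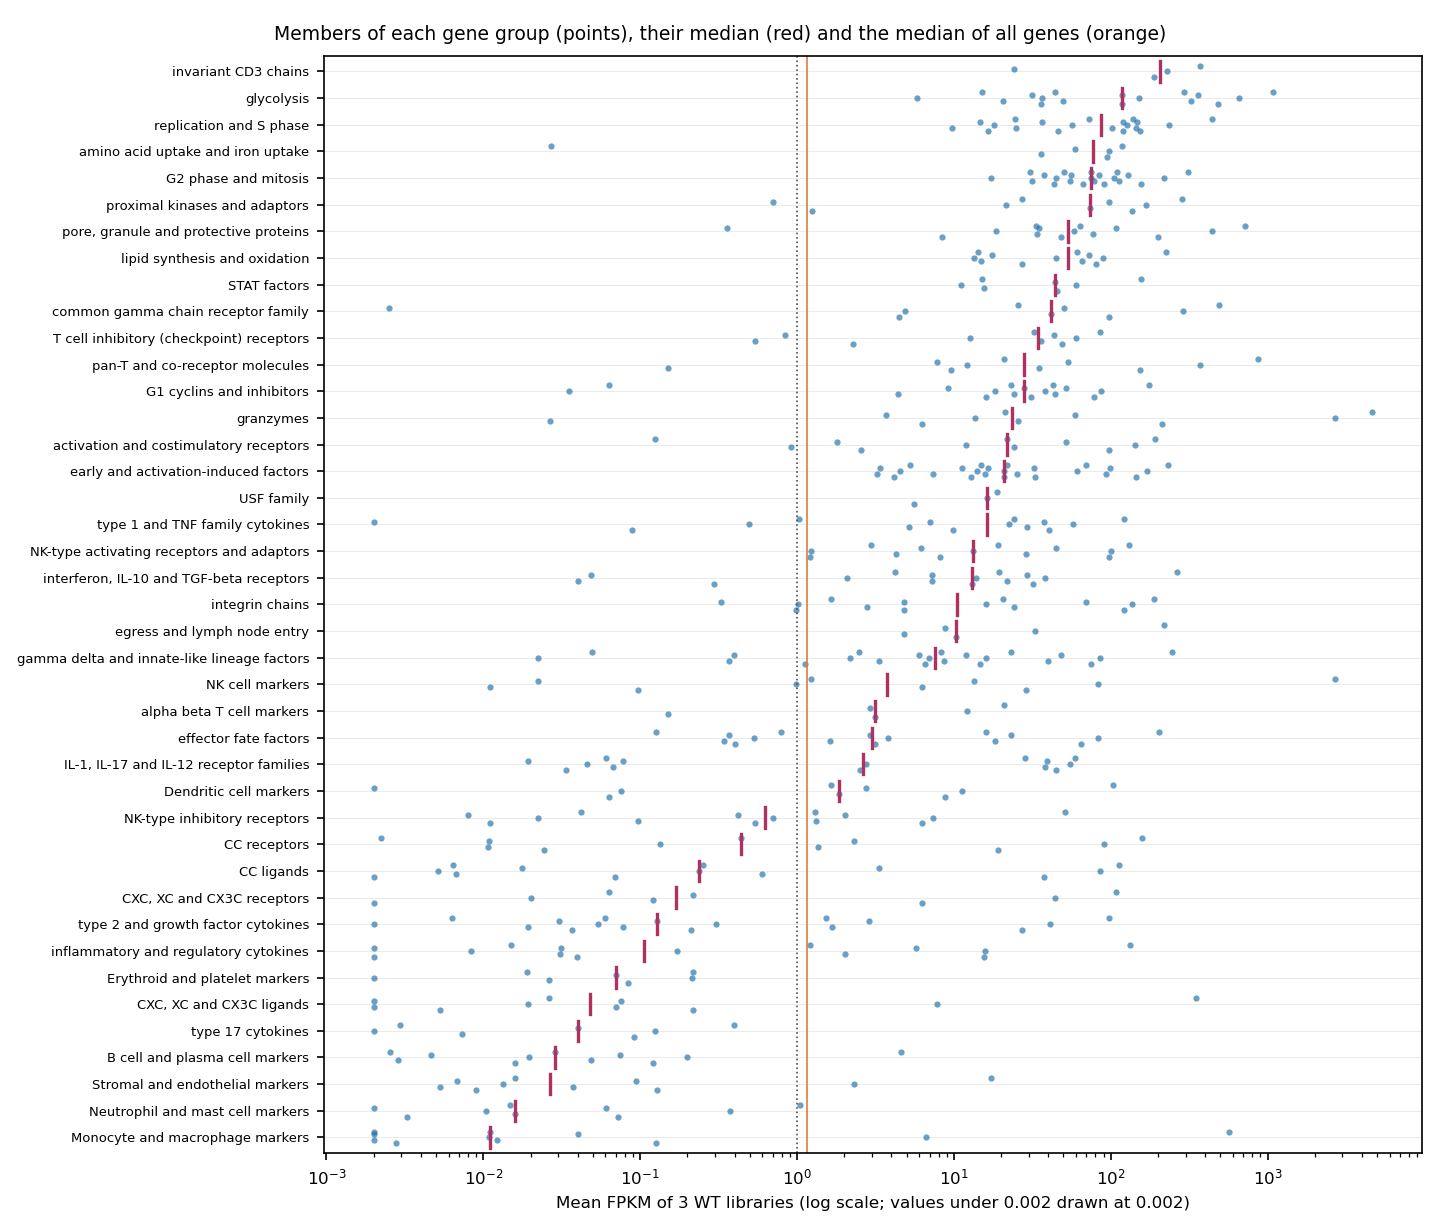
Mean level over the 3 WT libraries (horizontal axis, FPKM, log scale) of every listed member with a value, grouped by role and ordered by the group's median (red bar), with 1 FPKM dotted and the median of all genes, 1.15 FPKM, in orange. The CD3, glycolysis, replication and mitosis groups lie among the highest, and type 17 cytokines and the markers of B, monocyte, granulocyte and stromal cells among the lowest.

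Members close to 1 FPKM could fall on either side of the threshold. Just above it on the mean were Itga5 at 1.02 FPKM, Tnfsf9 at 1.02 FPKM, Mcpt8 at 1.04 FPKM, Sox13 at 1.12 FPKM and Klrb1b at 1.2 FPKM. Each of these 5 was under 1 FPKM in at least 1 library. Just below it were Itga2 at 0.986 FPKM, Slamf6 at 0.914 FPKM, Btla at 0.833 FPKM, Rora at 0.79 FPKM and Klra3 at 0.706 FPKM. Of these Itga2 was over 1 FPKM in library 1, and Slamf6 and Klra3 were over it in library 3, so the calls of such members rest on single libraries. Klra3, an Ly49 gene, had 23, 23 and 53 counts, most of them in library 3.

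The 3 libraries gave nearly the same levels. Over the 9703 genes at or above 1 FPKM, Pearson's r of log2(FPKM + 1) between libraries was 0.998 for each of the 3 pairs, across genes, which are not independent replicates. The median coefficient of variation of the 9906 genes with a mean of at least 1 FPKM was 3.64%, where counting error alone would give 2.15%. At 100 FPKM or more it was 1.66%, against 0.705% from counting, and between 1 and 10 FPKM it was 5.87%, against 3.46%. A chi-square of counts over its degrees of freedom was between 3.22 and 3.26 for the 3 pairs, so each pair differed by more than sampling noise and none was taken as 1 library deposited more than once. Within the roles, 298 pairs of neighbours in the order of levels had both means at or above 1 FPKM. Of these 260 did not overlap between libraries while 38 did. Pairs on more than 1 list, such as Cd8a with Cd8b1, are counted in each. The genes were ordered by these same values, and overlap covers spread between libraries only, not error from counted length or shared sequence.

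Among genes with a mean of at least 10 FPKM the most variable were mostly short or uncharacterised genes and not immune effectors. Pigbos1, a microprotein of mitochondria, was at 7.82, 9.93 and 12.9 FPKM, a coefficient of variation of 24.8%. Gm36220 was at 21.9, 18.3 and 14.5 FPKM, from only 82, 67 and 54 counts. Timm23, of the mitochondrial import channel, was at 89, 64.8 and 65.9 FPKM, high in library 1, and 90.9% of its windows recur in another gene. Gm30368 was at 69.4, 95.8 and 73.2 FPKM and H2-Q7, a nonclassical class I gene of a family of close copies, at 19.96, 27.4 and 21 FPKM, both high in library 2. Epb41l4aos, Arl2, Pigyl, Tm2d1 and LOC118567469 had coefficients of variation of 16.4%, 15.5%, 15.2%, 14.6% and 14.1%. By comparison Gzmb varied by 1.29%, Ifng by 1.42% and Egr1 by 1.96%. These are examples, and other effector genes varied more, with Ltb at 6.94% and Fasl at 5.91%. The genes also differ in depth, with a coefficient expected from counting error of 0.201% for Gzmb and 12.2% for Gm36220.

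**Figure D5:**
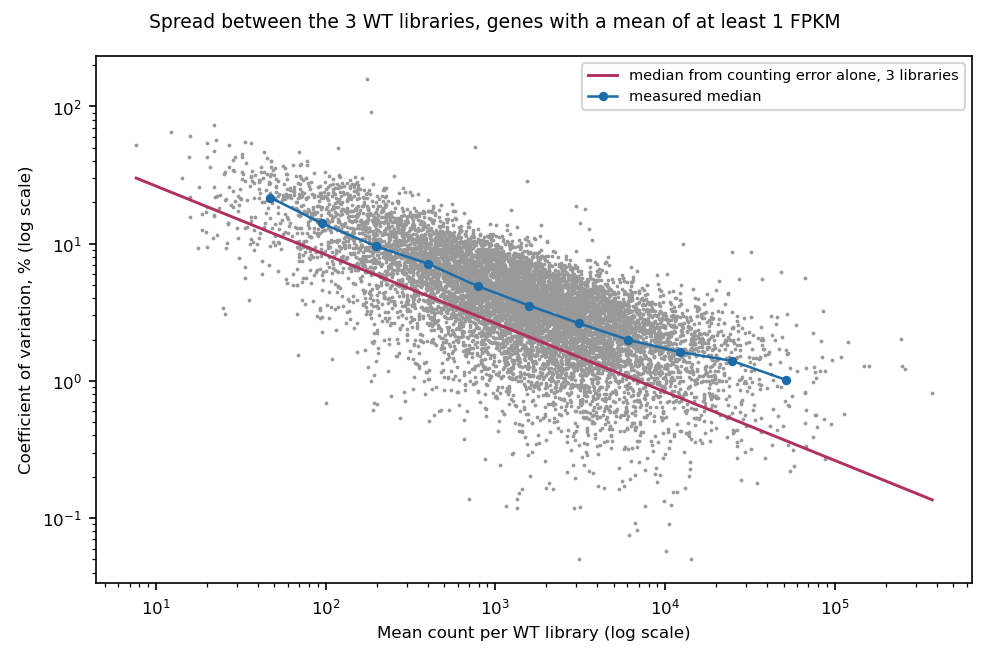
Coefficient of variation between the 3 WT libraries (vertical axis, percent, log scale, values under 0.05% drawn at 0.05%) against mean count per library (horizontal axis, log scale) for the 9906 genes with a mean of at least 1 FPKM, with the measured median by bins of counts in blue and the median that counting error alone would give in red. The measured median lies over the counting line in every bin and falls as counts rise.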

How the data were processed

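Per the labels' protocols, TRIzol was used to extract total RNA and the VAHTS Universal V6 kit to build the libraries. The submitters' processing notes name fastp, HISAT2, HTSeq and the build GRCm39. Versions, settings, annotation and strand use are not stated there, so a gene's reads cannot be told apart from those of an overlapping antisense gene.

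The authors deposited whole-number counts for 19390 gene symbols and FPKM for the same genes. The deposited FPKM equal count over column total over 1 fixed length per gene, recovered here as the counted length. Only the 3 WT columns were read, each matched by title, and 0 columns lay outside the labelled samples. Depth was 34914065 to 35613092 counts per library, and 3 counts per library was taken as the floor.

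Levels, ranks, SD and coefficients of variation were computed in Python 3.11.15 with pandas 2.3.3 and numpy 2.4.6, figures with matplotlib 3.10.9, and the spread calculation was tested on simulated counts. A gene counted as expressed at 1 FPKM or more in every library. The text names the 25 highest genes, the 4 highest members of each role in every library, other members over 1 FPKM, those at the floor, the 10 most variable genes of at least 10 FPKM and the 5 members nearest 1 FPKM on each side. Other members are named to account for the lists, and a few that fall under the rule are left out of the text. Gzmb, Ifng, Egr1, Ltb and Fasl were set beside the variable genes as examples. The genes and lists were chosen with earlier results of these data known, and the 10 genes with printed promoters were chosen after their levels were seen. GENCODE M21 on GRCm38, a build other than that of the counts, served only to find 50-base windows and exons shared between genes, matched by symbol for 465 of 465 members, of which 12 shared 50% or more. Promoters came from RefSeq on GRCm38.p6. Alternatives changed the threshold, the scale, the filter on low values and the libraries.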

Additional observations from a re-analysis of the deposited data

How the results depend on the processing

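The count of genes at or above 1 FPKM, 9703, ran from 8753 (2 FPKM) to 12283 (10 counts in every library) under the alternatives, within 1.5 times of the value given, and that of listed members, 317, from 303 to 339. Genes with 0 counts in every library numbered 1261, against 4165 with at most 3 counts in each, and without 1 library they numbered 1906 to 1952, as fewer libraries have to be at 0. The share of the 100 highest genes, 33.1%, was 18.6% by counts and 26.6% without mitochondrially encoded and ribosomal protein genes, and 33.0% to 33.1% without 1 library. The median coefficient of variation, 3.64%, was 3.64% with median-of-ratios scaling, 5.92% with no filter, 2.58% at 10 FPKM or more and 2.83% to 3.03% without 1 library, where it rests on 2 values. Over 41 roles and 287 settings the count of members over 1 FPKM moved by over 1.5 times in 4: inhibitory killer receptors went from 6 to 3 and stromal markers from 2 to 1 at 2 FPKM, and neutrophil and mast cell markers from 0 to 1 at 0.5 FPKM and at 1 TPM. The ranks of 158 of 162 named genes moved by counts, 61 of them over 2-fold, against 2 of 486 by TPM or log means and 25 of 486 without 1 library. No paired analysis was possible because only WT libraries were used, no groups were compared and the results come from no test. Depth limits what is said of the 4165 genes at the floor.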

Other observations

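A few genes outside the lists, chosen after their values were seen, are given as values. Scart1 and Scart2, scavenger receptor genes known from interleukin-17-making γδ T cells, were at 1.91, 1.58 and 1.48 FPKM and at 3.85, 3.81 and 4.03 FPKM, so both were at or above 1 FPKM in every library where Il17a, Il23r and Ccr6 were not. Blk and Sox13, also known from those cells, lay near 1 FPKM, while Zbtb16 lay under it. Xist, the RNA of the inactive X chromosome, was at 64.7, 66.0 and 68.6 FPKM. Malat1, a nuclear RNA that is often among the highest in lymphocytes, was at 57.4, 48.0 and 49.1 FPKM, of rank 1413 by level and 490 by counts.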
